A study of Mus musculus with 10 samples.

Results

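Extracellular ATP, NAD and adenosine are signals that T cells make, clear and sense at their surface. The 9 genes described here were listed for those steps. They include the ectonucleotidases Entpd1 and Nt5e, the NAD-consuming ectoenzymes Cd38 and Art2b, the ATP-gated channels P2rx7 and P2rx4, and the adenosine receptor Adora2a. Ada, which clears adenosine, and Dpp4, whose product binds adenosine deaminase in humans, complete the list. The 9 genes were chosen by name, with earlier results of these data known. All 9 were found by symbol among the 22553 Ensembl genes of the count table. All 9 passed the filter on low counts. They were compared between Tfam knockout (KO) and control (Ctrl) regulatory T cells (Treg), a suppressive CD4 T cell lineage defined by Foxp3. TFAM packages mitochondrial DNA and is needed for its transcription.

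The mice were female littermates on a C57BL/6 background. Each library held RNA of YFP+ Treg sorted from spleen and lymph node, pooled over 2 to 3 mice. Every mouse was heterozygous for the Foxp3 Yfp-Cre allele (Foxp3Yfp-Cre/+), so Cre acts in Foxp3-expressing cells. Foxp3 lies on the X chromosome, so each female also keeps Treg without Cre, which the YFP sort leaves out. Control mice were Tfamfl/+ with 1 floxed Tfam allele, so Cre can delete that copy in their Treg as well, and KO mice were Tfamfl/fl with 2. There were 3 libraries per genotype. ATAC-seq libraries of the same genotypes were not analysed here.

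In Treg, CD39 (Entpd1) strips phosphates from ATP and ADP to give AMP, and CD73 (Nt5e) turns AMP into adenosine. Adenosine binds the receptor encoded by Adora2a, which couples to Gs and raises cAMP, and it is removed by deamination (Ada) or, after uptake, by phosphorylation. In mouse T cells extracellular NAD feeds a second route: the ADP-ribosyltransferase ARTC2.2 (Art2b) uses NAD to modify and open the channel P2X7 (P2rx7), while CD38 degrades NAD.

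Library totals ran from 21419772 to 27490253 counts in Ctrl and from 19087757 to 23794028 in KO. A count of 3 equals 0.110 to 0.157 CPM (a gene's count relative to its library total, scaled with TMM factors) across the 6 libraries. Tfam stood at 25.9, 30.6 and 42.4 CPM in Ctrl libraries 1 to 3 and at 15.6, 14.4 and 16.5 CPM in KO libraries 1 to 3, without overlap (log2 fold change -1.09 ± 0.17 SE, edgeR adjusted p = 0.020). This call was lost without Ctrl replicate 2 (edgeR adjusted p = 0.0551) or KO replicate 1, 2 or 3 (0.109, 0.0866 and 0.0844). It was also lost without both libraries numbered 2 (0.123). With the replicate block the call held in full and without both libraries of any number. The 8 Treg markers summed to 3248 to 3384 CPM in Ctrl and 3073 to 3232 CPM in KO. The 15 macrophage and monocyte markers, of which 0 were called, had sums of 468, 1003 and 549.6 CPM across Ctrl libraries 1 to 3. The KO libraries had 614, 1449 and 534 CPM, so in each genotype the library numbered 2 stood apart. None of these 15 markers was at 0 in all libraries. The 10 B cell markers summed to 555 to 583 CPM in Ctrl and 401 to 436 CPM in KO. Nearly all of that sum was Ighm, the only one called (531 to 563 CPM against 379.8 to 419 CPM, edgeR adjusted p = 0.0134). The 7 CD8 T and NK cell markers summed to 27.01 to 28.96 CPM and 30.07 to 33.2 CPM, with 0 called. The Treg, B cell and CD8 T and NK cell sums thus did not overlap between the genotypes, and the part of such differences in the results for the 9 genes was not tested. Same-numbered Ctrl and KO libraries deviated from their group means together, so fits with the replicate number as a block are given where they change a call.

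Without the block, 0 of the 9 genes were called lower and 0 higher at an adjusted p under 0.05 by edgeR's quasi-likelihood test. Of the 11990 genes in that test, 1.39% fell and 0.100% rose. With the block in edgeR, 2 of the 9 were called lower, Adora2a and Nt5e, and 0 higher, beside 4.39% lower and 1.97% higher in the whole table. DESeq2 called Adora2a lower and none of the 9 higher, both without the block (2.20% lower and 0.634% higher in the whole table) and with it (2.50% and 1.15%). Limma-voom called 0 of the 9 (1.13% and 0.0250%). At an unadjusted p under 0.05 in edgeR without the block, 3 of the 9 were lower and 0 higher, beside 7.22% and 5.40% of the whole table. Of the 9 genes, 6 had a fitted value below 0 against 51.2% of all tested genes, and their median was -0.19 on the log2 scale, where the whole table had -0.005. Without Ctrl replicate 2 the median of the 9 was -0.09, and without KO replicate 1 it was -0.11. All 9 values lay between -0.36 (Cd38) and 0.21 (Ada). In these bulk samples, fewer cells that express a gene and less RNA per cell cannot be told apart.

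**Figure D1:**
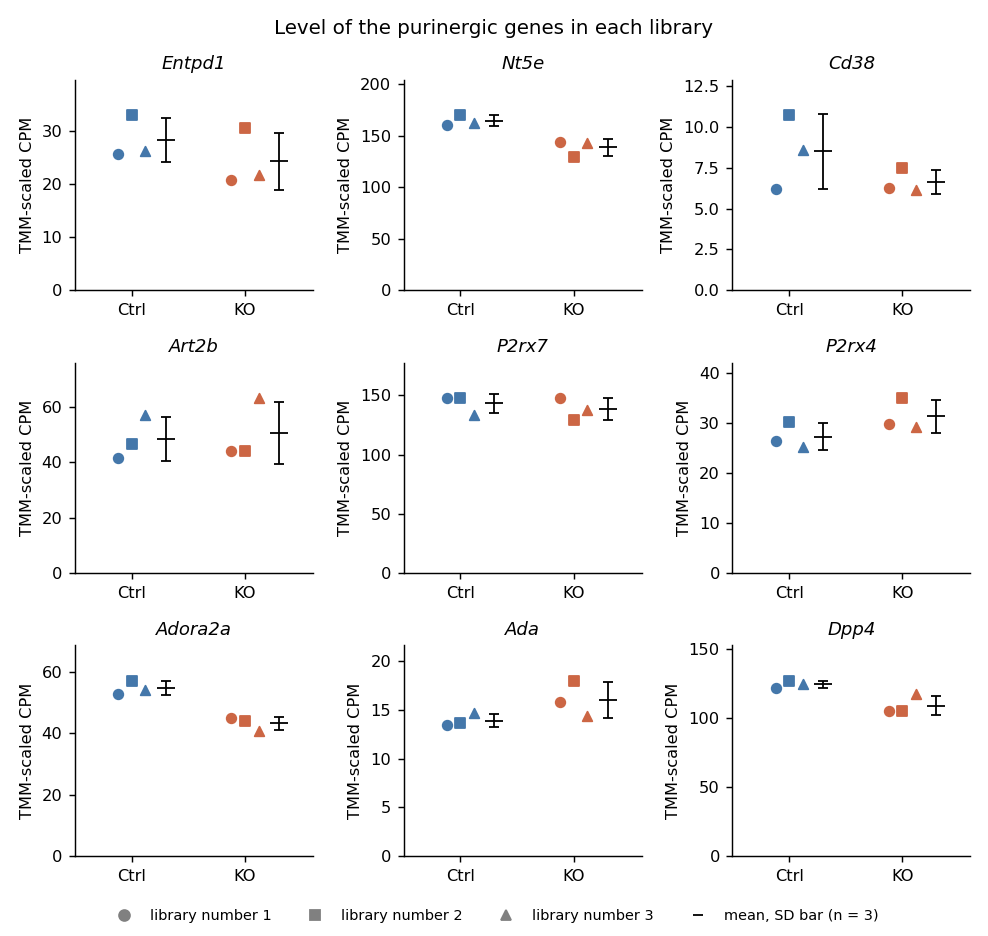
TMM-scaled CPM (y axis, from 0) of each of the 9 genes in the 3 Ctrl and 3 KO libraries (x axis). Marker shapes give the library number, the horizontal dash the group mean and the bar its SD. Adora2a, Nt5e and Dpp4 are lower in every KO library than in every Ctrl library, while the other 6 overlap.

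For 3 of the 9 genes, Adora2a, Nt5e and Dpp4, all KO libraries lay below all Ctrl libraries, and for 0 of the 9 all KO libraries lay above. Over all tested genes 10.4% lay wholly below and 8.63% wholly above. The sequences just upstream of the transcription start are shown for Nt5e and Dpp4, the 2 of these genes with an entry in the RefSeq promoter table. Bases are lower case, and capitals mark matches on either strand to a GC box (GGGCGG), a half-site of the cAMP response element (TGACG), an AP-1 site (TGANTCA) or a RUNX site (TGTGGT).
Nt5e (RefSeq, GRCm38.p6, chr9:88327359-88327608, plus strand): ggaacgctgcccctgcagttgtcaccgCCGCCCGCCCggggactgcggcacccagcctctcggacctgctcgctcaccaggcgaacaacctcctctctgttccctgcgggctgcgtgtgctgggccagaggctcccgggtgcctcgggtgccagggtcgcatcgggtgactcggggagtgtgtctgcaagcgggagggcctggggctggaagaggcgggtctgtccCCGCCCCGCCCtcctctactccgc
Dpp4 (RefSeq, GRCm38.p6, chr2:62412232-62412481, minus strand): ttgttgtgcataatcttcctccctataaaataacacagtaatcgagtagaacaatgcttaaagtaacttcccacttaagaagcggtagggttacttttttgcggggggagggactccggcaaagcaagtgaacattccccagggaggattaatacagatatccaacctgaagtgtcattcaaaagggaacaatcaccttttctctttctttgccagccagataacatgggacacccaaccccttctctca
The 250 bases upstream of Nt5e held 4 GC box matches, which form 2 overlapping pairs, and 0 matches to the other motifs. The same window of Dpp4 held 0 matches to any of the 4. Of 32851 mouse promoter windows of this length, 32.7% held a GC box, 17.8% a TGACG half-site, 6.75% an AP-1 site and 14% a RUNX site. Of the 10 windows found for 8 of the 9 genes, 4 held the half-site (in Entpd1, P2rx4 and Art2b). A GC box was in 3 (Ada, Nt5e and P2rx7), an AP-1 site in 2 (Art2b and P2rx7) and a RUNX site in 1 (Art2b). The P2rx7 matches lay in its window that starts at base 122643677 of chromosome 5. Its other window, from base 122650133, held 0 matches to any of the 4 motifs. These matches describe letters in a window and are not evidence of binding.

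Adora2a, the receptor through which adenosine raises cAMP in T cells, had the smallest p-value of the 9. Its level was 52.9, 57.1 and 54.1 CPM in Ctrl libraries 1 to 3 and 45.01, 43.9 and 40.7 CPM in KO libraries 1 to 3. All 3 KO libraries were lower than all 3 Ctrl libraries, and the SD within each group was small (54.7 ± 2.18 against 43.2 ± 2.22 CPM, n = 3 each). The fitted level was 1.27-fold lower in KO (log2 fold change -0.34 ± 0.07 SE, 95% interval -0.50 to -0.18). The adjusted p was 0.0636 without the block, which misses the threshold. With the replicate block it was 0.00812, and the log2 fold change stayed at -0.34. DESeq2 called the gene lower both without the block (adjusted p = 0.0155) and with it (0.0283), and limma-voom did not (0.0775). Within same-numbered pairs 1 to 3 the log2 ratio was -0.23, -0.38 and -0.41. With the block and without both libraries numbered 3, the call was lost (log2 fold change -0.30, edgeR adjusted p = 0.0601). It held without both numbered 1 (0.0177) or both numbered 2 (0.0228).

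The other adenosine receptors were scarcely counted. Adora1 was listed at 0 in all 6 libraries. Adora2b had 2 counts in all and Adora3 14, with at most 6 in a single library. Neither passed the filter, so any difference in them was not detectable at this depth.

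Nt5e encodes CD73, the enzyme that releases adenosine from AMP. Its level was 159.8, 170.1 and 163 CPM in Ctrl libraries 1 to 3 and 144, 129 and 142 CPM in KO libraries 1 to 3. The groups did not overlap, and KO replicate 2 was the lowest library. The fitted level was 1.19-fold lower in KO (log2 fold change -0.25 ± 0.07 SE, 95% interval -0.40 to -0.09, edgeR adjusted p = 0.158). With the block the adjusted p was 0.0412 at the same log2 fold change of -0.25, while DESeq2 with the block gave 0.0838. The pairs gave log2 ratios of -0.15, -0.40 and -0.19. The blocked call was lost without both libraries numbered 1 (edgeR adjusted p = 0.0782), both numbered 2 (0.262) or both numbered 3 (0.0833).

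Entpd1 encodes CD39, the enzyme one step upstream of CD73. Its level was 25.6, 32.96 and 26.2 CPM in Ctrl libraries 1 to 3 and 20.7, 30.4 and 21.6 CPM in KO libraries 1 to 3. The groups overlapped because KO replicate 2 lay above Ctrl replicates 1 and 3. The log2 fold change was -0.22 ± 0.16 SE (95% interval -0.59 to 0.15, edgeR adjusted p = 0.628; 0.0977 with the block). Within each pair KO was the lower library, with log2 ratios of -0.30, -0.12 and -0.27. Entpd1 is also expressed by macrophages, and it was highest in the 2 libraries with the most macrophage RNA. Its level in library 2 was 1.27 times the mean of libraries 1 and 3 in Ctrl and 1.44 times in KO, where the macrophage marker sum was 1.97 and 2.52 times as high. The part of macrophage RNA in this gene's values was not tested. Without both libraries numbered 2 the log2 fold change was -0.29 (edgeR adjusted p = 0.589). Leaving out 1 library gave -0.09 without Ctrl replicate 2, and -0.11, -0.40 and -0.14 without KO replicates 1, 2 and 3.

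**Figure D2:**
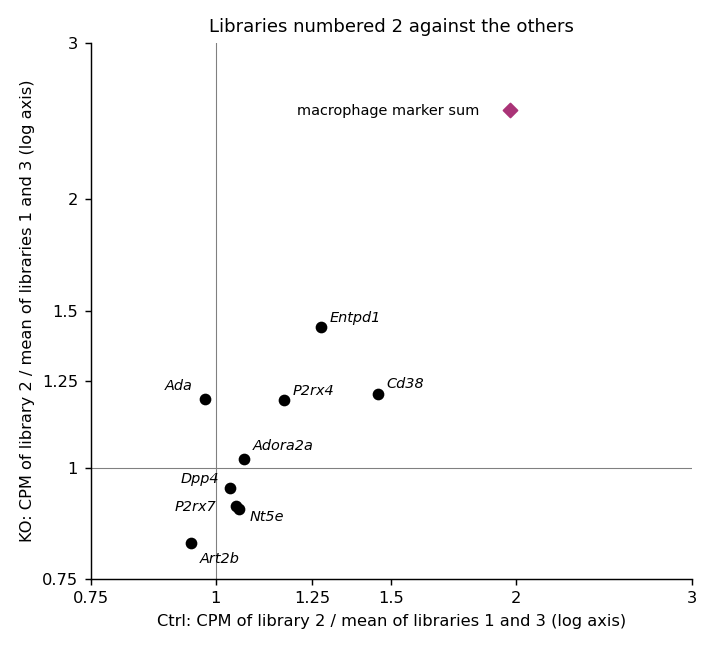
CPM of the library numbered 2 divided by the mean of libraries 1 and 3, in Ctrl (x axis, log scale) and KO (y axis, log scale), for the 9 genes (circles) and the summed macrophage markers (diamond). Entpd1, P2rx4 and Cd38 lie above 1 on both axes at 1.17 or more, and Nt5e, P2rx7, Dpp4 and Adora2a lie between 0.899 and 1.07 on both axes.

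P2rx7 encodes the ATP-gated channel that extracellular NAD can open through ARTC2.2. Its level was 148, 148 and 134 CPM in Ctrl libraries 1 to 3 and 148, 129 and 138 CPM in KO libraries 1 to 3, and the groups overlapped almost entirely. The log2 fold change was -0.05 ± 0.07 SE (edgeR adjusted p = 0.829; 0.678 with the block). The 95% interval ran from -0.22 to 0.12, so fitted levels from 0.859 to 1.09 times control lie within it. The sign of the log2 fold change turned without both libraries numbered 2 (0.02) and without KO replicate 2 (0.01).

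P2rx4, another ATP-gated channel, is the next protein-coding gene to P2rx7 on chromosome 5 in the RefSeq annotation of GRCm38.p6. Its level was 26.4, 30.2 and 25.2 CPM in Ctrl libraries 1 to 3 and 29.8, 35.01 and 29.1 CPM in KO libraries 1 to 3. Only Ctrl replicate 2 reached into the KO range. Its log2 fold change was 0.20 ± 0.10 SE (95% interval -0.04 to 0.44, edgeR adjusted p = 0.473; 0.115 with the block). The 3 pairs gave similar log2 ratios of 0.17, 0.21 and 0.21. Like Entpd1, P2rx4 was higher in both libraries numbered 2, at 1.17 times the other Ctrl libraries and 1.19 times the other KO libraries. The macrophage marker sum was also higher in KO than Ctrl in pair 1 (1.31 times) and pair 2 (1.44 times) but not in pair 3 (0.972 times). The part of macrophage RNA in the P2rx4 values was not tested. Without KO replicate 2 the log2 fold change of P2rx4 was 0.12.

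**Figure D3:**
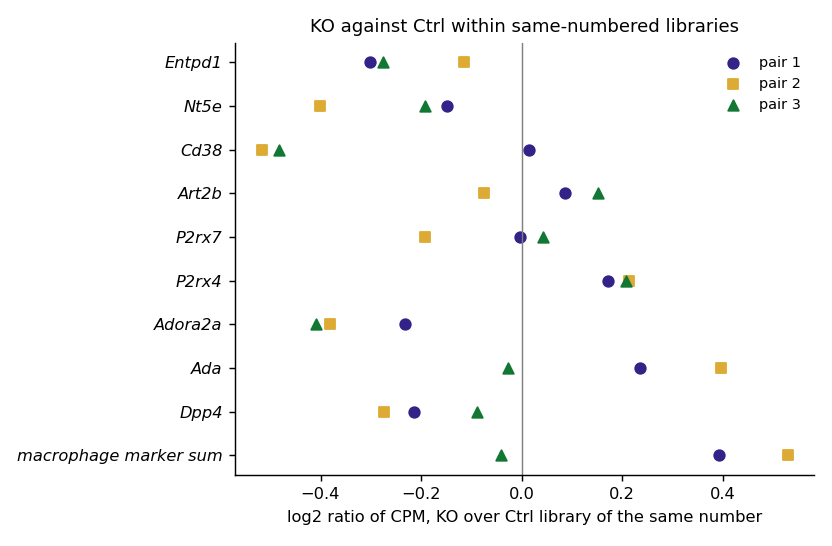
Log2 ratio of CPM in the KO library over the Ctrl library of the same number (x axis) for the 9 genes and the summed macrophage markers (y axis); each point is 1 pair. Adora2a, Nt5e, Dpp4 and Entpd1 lie below 0 in all 3 pairs, P2rx4 lies above 0 in all 3, and Cd38, Art2b, P2rx7 and Ada fall on both sides.

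Art2b encodes ARTC2.2, the enzyme that ADP-ribosylates P2X7. Its level was 41.5, 46.5 and 57.0 CPM in Ctrl libraries 1 to 3 and 44.1, 44.2 and 63.3 CPM in KO libraries 1 to 3. In both genotypes the library numbered 3 was the highest, and the groups overlapped. The log2 fold change was 0.06 ± 0.16 SE (95% interval -0.31 to 0.43, edgeR adjusted p = 0.914; 0.648 with the block), and its sign turned without Ctrl replicate 1 (-0.02) or KO replicate 3 (-0.13). Art2a, a closely related transcribed pseudogene that lies next to Art2b on chromosome 7, had 6.11, 8.14 and 5.19 CPM in Ctrl libraries 1 to 3 and 6.50, 4.82 and 7.50 CPM in KO libraries 1 to 3. Reads shared between these copies can be lost or split in counting, so the level of either is uncertain.

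Cd38, an ectoenzyme that degrades NAD, had the lowest counts of the 9, with 117 to 236 in a library. Its level was 6.19, 10.7 and 8.58 CPM in Ctrl libraries 1 to 3 and 6.25, 7.50 and 6.14 CPM in KO libraries 1 to 3. The Ctrl libraries spread widely, and Ctrl replicate 1 lay within the KO range. For KO against Ctrl the log2 fold change was -0.36 ± 0.20 SE (95% interval -0.82 to 0.11, edgeR adjusted p = 0.515; 0.180 with the block). The value moved from -0.53 without Ctrl replicate 1 to -0.16 without Ctrl replicate 2. Pairs 2 and 3 gave log2 ratios of -0.52 and -0.48, and pair 1 gave 0.01. Macrophages and B cells also express Cd38. It was 1.45 times as high in Ctrl replicate 2 as in the other Ctrl libraries. In KO replicate 2 it was 1.21 times as high as in the other KO libraries. The B cell marker sum given above differed between the genotypes, but nearly all of it was Ighm, the only B cell marker called. Neither macrophage nor B cell RNA was tested as a part of the Cd38 values. Bst1, the related NAD-degrading enzyme encoded next to Cd38 on chromosome 5, had 12 counts over all 6 libraries.

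Ada, the deaminase that turns adenosine into inosine, stood at 13.4, 13.7 and 14.6 CPM in Ctrl libraries 1 to 3 and 15.8, 18.0 and 14.4 CPM in KO libraries 1 to 3. KO replicates 1 and 2 lay above all Ctrl libraries, and KO replicate 3 lay within their range. KO against Ctrl gave a log2 fold change of 0.21 ± 0.11 SE (95% interval -0.04 to 0.45, edgeR adjusted p = 0.477; 0.270 with the block). The pairs gave log2 ratios of 0.24, 0.40 and -0.03. The log2 fold change was 0.13 without KO replicate 2 and 0.11 without both libraries numbered 2.

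Dpp4 encodes CD26, a surface peptidase that binds adenosine deaminase in humans. Such binding was not examined in these mouse cells. The values below are for Dpp4 RNA only. Its level was 121, 127 and 124 CPM in Ctrl libraries 1 to 3 and 105, 105 and 117 CPM in KO libraries 1 to 3. The groups did not overlap, although KO replicate 3 came close to Ctrl replicate 1. The fitted level was 1.14-fold lower in KO (log2 fold change -0.19 ± 0.07 SE, 95% interval -0.34 to -0.04). It passed in neither edgeR fit (adjusted p = 0.287, and 0.0772 with the block). The pairs gave -0.21, -0.27 and -0.09 on the log2 scale.

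**Figure D4:**
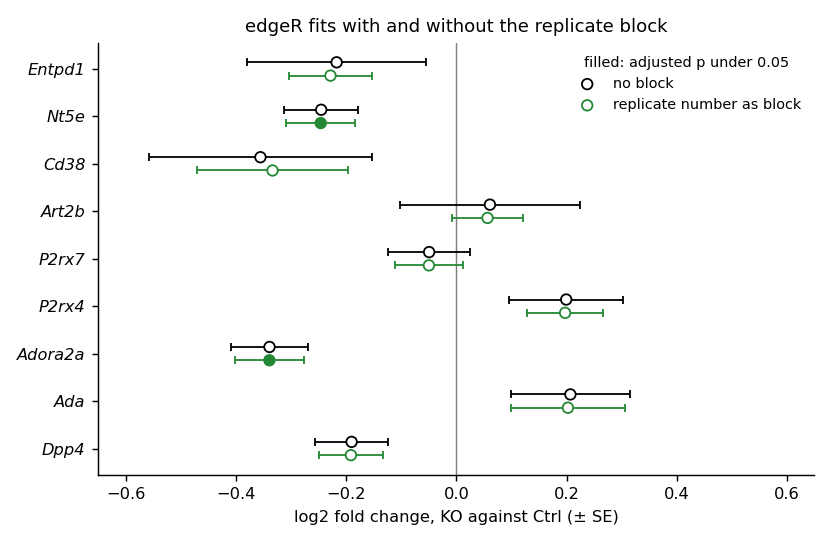
Log2 fold change of KO against Ctrl (x axis, bars ± SE) for the 9 genes (y axis) in edgeR without the block (black) and with the replicate number as a block (green); filled points have an adjusted p under 0.05. The estimates of the 2 fits nearly coincide, and Adora2a and Nt5e are the filled points, both with the block.

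The rest of the pathway was taken from 5 lists of 76 genes, of which 54 were tested. Without the block 0 of the 54 were called lower and 0 higher by edgeR, and 9 had an unadjusted p under 0.05 (5 lower, 4 higher), beside the 7.22% lower and 5.40% higher in the whole table. With the block 1 of the 54 was called lower and 2 higher, beside 4.39% and 1.97% in the whole table. The median log2 fold change over the 54 was -0.02, and 30 had a fitted value below 0.

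Among enzymes that act on nucleotides or NAD outside the cell or in the secretory pathway, 10 of 17 genes were tested, with a median log2 fold change of -0.02. The most abundant were Cant1, a nucleotidase of the secretory pathway, at 93.4 ± 7.25 CPM in Ctrl and 95.3 ± 8.28 CPM in KO, and Entpd5, an ER nucleotidase, at 46.1 ± 4.43 and 45.01 ± 3.35 CPM (SD, n = 3 each). Their log2 fold changes were 0.03 ± 0.09 SE and -0.03 ± 0.09 SE, and the sign of both turned in some fits with a library left out. The other 7 genes of the list, Bst1 among them, did not pass the filter, and Entpd4 was listed at 0. Art3, a further ADP-ribosyltransferase family member, lay furthest from 0 and was named for that after its values were seen. It had only 17 to 47 counts in a library, and its log2 fold change was -0.77 ± 0.32 SE (edgeR adjusted p = 0.364).

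Of 15 further P2 and adenosine receptor genes, 3 were tested. The 12 others stayed at or below 0.658 CPM in every library, and P2ry4 and Adora1 were listed at 0. P2ry13, an ADP receptor also found on macrophages, stood at 1.88, 4.86 and 2.63 CPM in Ctrl libraries 1 to 3 and 2.66, 6.18 and 2.52 CPM in KO libraries 1 to 3. It was highest in both libraries numbered 2 (2.16 and 2.39 times the others). Its log2 fold change was 0.29 ± 0.44 SE (edgeR adjusted p = 0.834), with a sign that turned without KO replicate 2 (-0.25). P2ry14, a receptor for UDP sugars, had a log2 fold change of -0.17 ± 0.20 SE (edgeR adjusted p = 0.777). P2ry12 was the third tested gene.

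For ATP release and partners of P2X7, 10 of 12 genes were tested and the median log2 fold change was -0.02. Slc17a9, the transporter that loads ATP into vesicles, stood at 109, 96.1 and 98.3 CPM in Ctrl libraries 1 to 3 and at 120.4, 128 and 123 CPM in KO libraries 1 to 3. All KO libraries lay above all Ctrl libraries (log2 fold change 0.29 ± 0.07 SE, edgeR adjusted p = 0.104). It was called higher with the block (edgeR adjusted p = 0.0184) and by DESeq2 (0.0105, or 0.0140 with the block), but with the block not without both libraries numbered 2 (0.102) or both numbered 3 (0.0866). Adam10, a sheddase, had a log2 fold change of -0.13 ± 0.08 SE (edgeR adjusted p = 0.531). Nlrp3, the inflammasome sensor downstream of P2X7 in macrophages, was 2.71 and 5.74 times as high in the Ctrl and KO libraries numbered 2 as in the others, and was named after its values were seen. Lrrc8a was listed at 0 in all libraries. For it, as for Entpd4 and the other genes listed at 0, missing RNA and reads lost in counting cannot be told apart.

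For adenosine uptake and clearance, 11 of 12 genes were tested, with a median log2 fold change of 0.05. In edgeR without the block, 2 of the 11 were lower and 1 higher at an unadjusted p under 0.05, beside 7.22% and 5.40% of all tested genes. The nucleoside transporters Slc28a2 and Slc29a1 were the most abundant, with log2 fold changes of 0.13 ± 0.06 SE and -0.06 ± 0.08 SE (edgeR adjusted p = 0.429 and 0.820). Adk, the kinase that returns adenosine to AMP inside the cell, stood at 39.5, 47.9 and 49.02 CPM in Ctrl libraries 1 to 3 and 35.2, 37.5 and 38.4 CPM in KO libraries 1 to 3, without overlap. Its log2 fold change was -0.30 ± 0.10 SE (edgeR adjusted p = 0.243), and it was called lower with the block in edgeR (0.0237) but not in DESeq2 (0.136). The blocked call was lost without both libraries numbered 2 (edgeR adjusted p = 0.0828) or both numbered 3 (0.132).

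Of the genes that carry the cAMP signal below Gs-coupled receptors, all 20 were tested, and the median log2 fold change was -0.03. At an unadjusted p under 0.05 in edgeR without the block, 2 of the 20 were lower and 1 higher, beside 7.22% and 5.40% of all tested genes. The most abundant were Prkar1a, a regulatory subunit of protein kinase A, at 378 ± 13.4 and 335 ± 10.1 CPM, and Adcy7, an adenylyl cyclase, at 274 ± 26.2 and 275 ± 14.4 CPM in Ctrl and KO (SD, n = 3 each). The log2 fold change of Prkar1a was -0.18 ± 0.06 SE (edgeR adjusted p = 0.288). That of Adcy7 was 0.01 ± 0.08 SE (0.987), and its sign turned in some fits with a library left out. Adcy6, another adenylyl cyclase, stood at 106, 85.9 and 94.2 CPM in Ctrl libraries 1 to 3 and 123, 109.5 and 122 CPM in KO libraries 1 to 3. Its log2 fold change was 0.31 ± 0.09 SE (edgeR adjusted p = 0.198). With the block it was called higher in edgeR (0.00827) and DESeq2 (0.00496), and in edgeR also without both libraries numbered 1, 2 or 3 (0.0148, 0.0358 and 0.0420). Adk and Adcy6 were named because they were called with the block, after their values were seen.

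**Figure D5:**
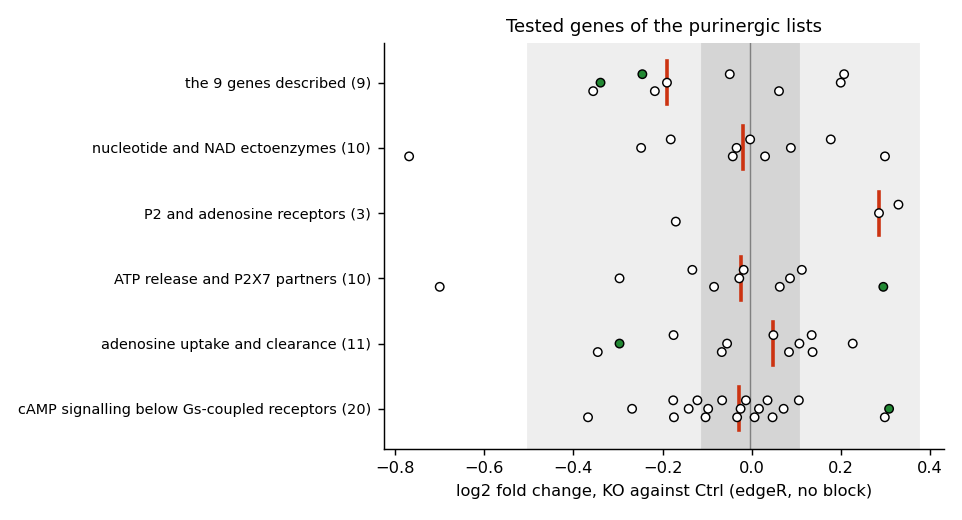
Log2 fold change of KO against Ctrl in edgeR without the block (x axis) for each tested gene (circle) of the 9 genes described and the 5 pathway lists (y axis, number tested in brackets). Red lines are list medians, the dark and light grey bands hold the middle 50% and 90% of all tested genes, and green circles had an adjusted p under 0.05 with the replicate block; these are Adora2a, Nt5e, Slc17a9, Adk and Adcy6. The 2 circles left of the bands are Art3 (-0.77) and Gja1 (-0.70), the latter with 0 to 13 counts in a library.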

How the data were processed

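Poly(A) RNA of sorted Treg was sequenced in 3 Ctrl and 3 KO libraries. The authors deposited read counts per Ensembl gene in 1 table, described as HTSeq counts per the labels. HISAT2 and HTSeq, and the builds mm9 and mm10, appear in the submitters' processing notes without their roles. Tool versions, annotation and the strand setting are, in the sources used here, not given, so overlapping genes on opposite strands may share counts. Of 22553 gene IDs, 22522 matched a symbol; the other 31 held 0.00269% of counts.

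The edgeR package (4.0.16, under R 4.3.3) was applied to the counts as deposited: filterByExpr (minimum count 10, minimum total 15; 11990 genes kept), TMM scaling, the quasi-likelihood F test of KO against Ctrl, and Benjamini-Hochberg adjustment over all tested genes, with calls at an adjusted p under 0.05. SE came from the F statistic and 95% intervals from its degrees of freedom. DESeq2 1.42.0 and limma-voom (limma 3.58.1) were alternatives. The edgeR test was checked on simulated counts. The floor of 3 counts covers counting error only. The labels do not say that pools came from separate days or litters, so p-values measure the spread between these libraries, which may be partly technical.

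Within a genotype, libraries differed by more than sampling noise (chi-square per degree of freedom 8.75 to 27.4), so each counted once. Deviations from the group means (log2 of CPM plus 0.5) correlated across genes at 0.33, 0.56 and 0.55 for same-numbered Ctrl and KO libraries 1 to 3. For Ctrl and KO libraries of unlike number the correlations ran from -0.54 to -0.03. Because the deviations are taken from group means, these values are not independent of each other. The numbers were taken to pair the samples. The pairing comes from these data and the shared numbers in the labels, which do not explain them.

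The 9 genes, the pathway and marker lists and the tests were chosen with earlier results of these data known. Named were the 9 genes, Tfam, and for each pathway list up to 4 called genes or, where none was called, the 2 most abundant tested genes. The rule also asked for the genes most alike to each called member, and none was called in edgeR without the block, the fit the rule refers to. Promoter windows of 8 of the 9 genes (not Adora2a) were matched by symbol in a RefSeq table of GRCm38.p6, whose build may not be that of the counts.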

Additional observations from a re-analysis of the deposited data

How the results depend on the processing

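The 9 log2 fold changes were recomputed under 16 alternatives, 4 of them added after seeing the data (DESeq2 with the replicate block, and the block in edgeR without both libraries of each number). Their signs held except for P2rx7, which was 0.019 without both libraries numbered 2, or 0.020 with the block, and ran from -0.096 to 0.0057 with 1 library left out, and Art2b, which ran from -0.13 to 0.20. The number of the 9 called lower was 2 with the replicate block in edgeR (4.39% of all tested genes). In DESeq2 it was 1 without the block and 1 with it (2.20% and 2.50%). With the block in edgeR, it was 1 without both libraries numbered 1, beside 335 of 11970 tested genes. Without both numbered 2 it was 1 (496 of 12114), and without both numbered 3 it was 0 (309 of 12104). In each fit with 1 library left out it was 0, beside 26 to 166 of 12121 to 12216 tested genes. The block changed no call among the 9 beyond Adora2a and Nt5e, and none among the pathway genes beyond Slc17a9, Adk and Adcy6.

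Of the 54 tested pathway genes, the block in edgeR called 1 lower and 2 higher (4.39% and 1.97% of all tested genes). DESeq2 called 1 higher (0.634%), and with the block 2 higher (1.15%). With the block in edgeR and without both libraries numbered 1, 2 or 3, the number called higher was 2, 1 and 1. Beside these, 205 of 11970, 208 of 12114 and 66 of 12104 tested genes were called higher. Without both numbered 1, 1 pathway gene was called lower, beside 335 of 11970. Near 0, Cant1 was -0.0098 without both libraries numbered 2, or -0.013 with the block, and ran from -0.027 to 0.11 with 1 library left out. Such ranges were -0.089 to 0.047 for Entpd5, -0.25 to 0.74 for P2ry13, -0.10 to 0.00016 for Slc29a1 and -0.071 to 0.069 for Adcy7, which was -0.085 with the block without both numbered 3.

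Over all genes, 167 were called lower and 12 higher. These counts were 526 and 236 with the block, 264 and 76 in DESeq2, 300 and 138 in DESeq2 with the block, 54 and 0 without both libraries numbered 2, and, with the block, 335 and 205, 496 and 208, and 309 and 66 without both numbered 1, 2 and 3. Limma-voom called 3 higher. With 1 library left out, 26 to 166 were called lower and 0 to 10 higher. The causes of these differences were not tested. A fit with libraries left out changes both their number and the values used, so it cannot separate the 2. With 3 libraries per genotype, the 95% interval of Adora2a spanned -0.50 to -0.18 and that of Cd38, the gene with the fewest counts, -0.82 to 0.11.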
